A study of Danio rerio with 18 samples.

Results

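Potassium channel genes were followed in RNA from zebrafish embryo cells sorted by fluorescence (GFP-positive and GFP-negative fractions). The members are all gene IDs whose symbol, ignoring case, starts with kcn, further letters and a digit. This rule found 125 of the 28298 gene IDs counted, in 19 subfamilies, and it uses no measured value. The symbols group them as 19 pore-forming subunits of the classical voltage-gated families (kcna to kcnd), 12 modifier subunits (kcnf, kcng, kcns, kcnv), 12 EAG and ERG genes (kcnh), 8 KCNQ genes, 9 genes of calcium- or sodium-activated channels (kcnma, kcnn, kcnt), 28 inward rectifiers (kcnj), 21 K2P channels (kcnk) and 16 auxiliary subunits (kcnab, kcne, kcnip, kcnmb). 20 symbols are shared by 45 of the IDs, which are given below with their Ensembl ID.

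Embryos of the gata5, tbx5 and hand2 genetic backgrounds were taken at 72 hpf (hours post fertilization), and wild-type embryos at 24, 48 and 72 hpf. The labels name the gene of a background but neither an allele nor the way the gene was altered, and they do not name the reporter that drives GFP. Each of these 6 conditions gave 2 GFP-positive libraries and 1 GFP-negative library, made from total RNA with a low-input kit, and the design text of the series names cardiomyocytes. Replicate libraries are not said to come from separate pools of embryos, so p-values measure no more than the spread among single libraries, which may be technical.

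Potassium channels let potassium leave or enter a cell along its gradient and so set the resting membrane potential and end the action potential. Voltage-gated subunits open on depolarization, inward rectifiers (Kir) and K2P channels carry resting or receptor-driven currents, and calcium-activated channels couple the membrane to calcium. In the heart, ERG, KCNQ1, Kv4 and Kir2 channels shape repolarization, and GIRK channels, made of KCNJ3 and KCNJ5, slow the beat in response to muscarinic input.

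Levels are TMM-scaled CPM, that is, counts relative to the scaled library total. They are not divided by transcript length, so levels are compared between libraries and not between genes. Library totals ran from 5705157 to 32141901 counts. Of 13 heart muscle marker IDs, 12 could be tested and all 12 were higher in the GFP-positive fraction, whose summed level ran from 1369 to 10140 CPM, against 989 to 2042 CPM in the GFP-negative one. The 2 TTN IDs made up most of these sums, and without them the sums were 94.3 to 4471 CPM in GFP-positive and 10.8 to 51.9 CPM in GFP-negative libraries. The GFP-positive libraries held other cells too. Their 10 xanthophore (yellow pigment cell) markers summed to 229 to 421 CPM at 24 hpf and 12030 to 43060 CPM at 48 and 72 hpf, against 82.2 to 358 CPM in GFP-negative libraries, and all 10 were higher. The 13 neural markers were between 105 and 694 CPM in GFP-positive and between 784 and 2566 CPM in GFP-negative libraries, with 10 of 13 lower in the GFP-positive fraction. HAND2 checked its label, at 2.56 and 0 CPM in the hand2 GFP-positive libraries and 0 CPM in the hand2 GFP-negative one, against at least 11.3 CPM in each of the other 15 libraries, while GATA5 and TBX5 transcripts remained in the libraries named for them.

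Most potassium channel genes were low in the GFP-positive fraction. At 1 CPM or more stood 52 and 51 (gata5), 67 and 61 (tbx5) and 46 and 48 members (hand2) in the 72 hpf GFP-positive libraries of the 3 backgrounds. The wild-type GFP-positive libraries held 26 and 29 at 24 hpf, 49 and 55 at 48 hpf, then 44 and 50 at 72 hpf. Of the GFP-negative libraries, those of the 3 backgrounds held 89 (gata5), 101 (tbx5) and 97 (hand2), and the wild-type ones 45 (24 hpf), 80 (48 hpf) and 77 (72 hpf). All 125 members had a count somewhere, and 2 never reached 1 CPM. Replicates were uneven, and the cause was not tested. At 24 hpf, 17 of the 37 members that reached 1 CPM in either GFP-positive replicate were at 0 in the other (45.9%), against 16.6% of all genes, and in wild type at 72 hpf 28 of 65 were (43.1%, against 18.9%).

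**Figure D1:**
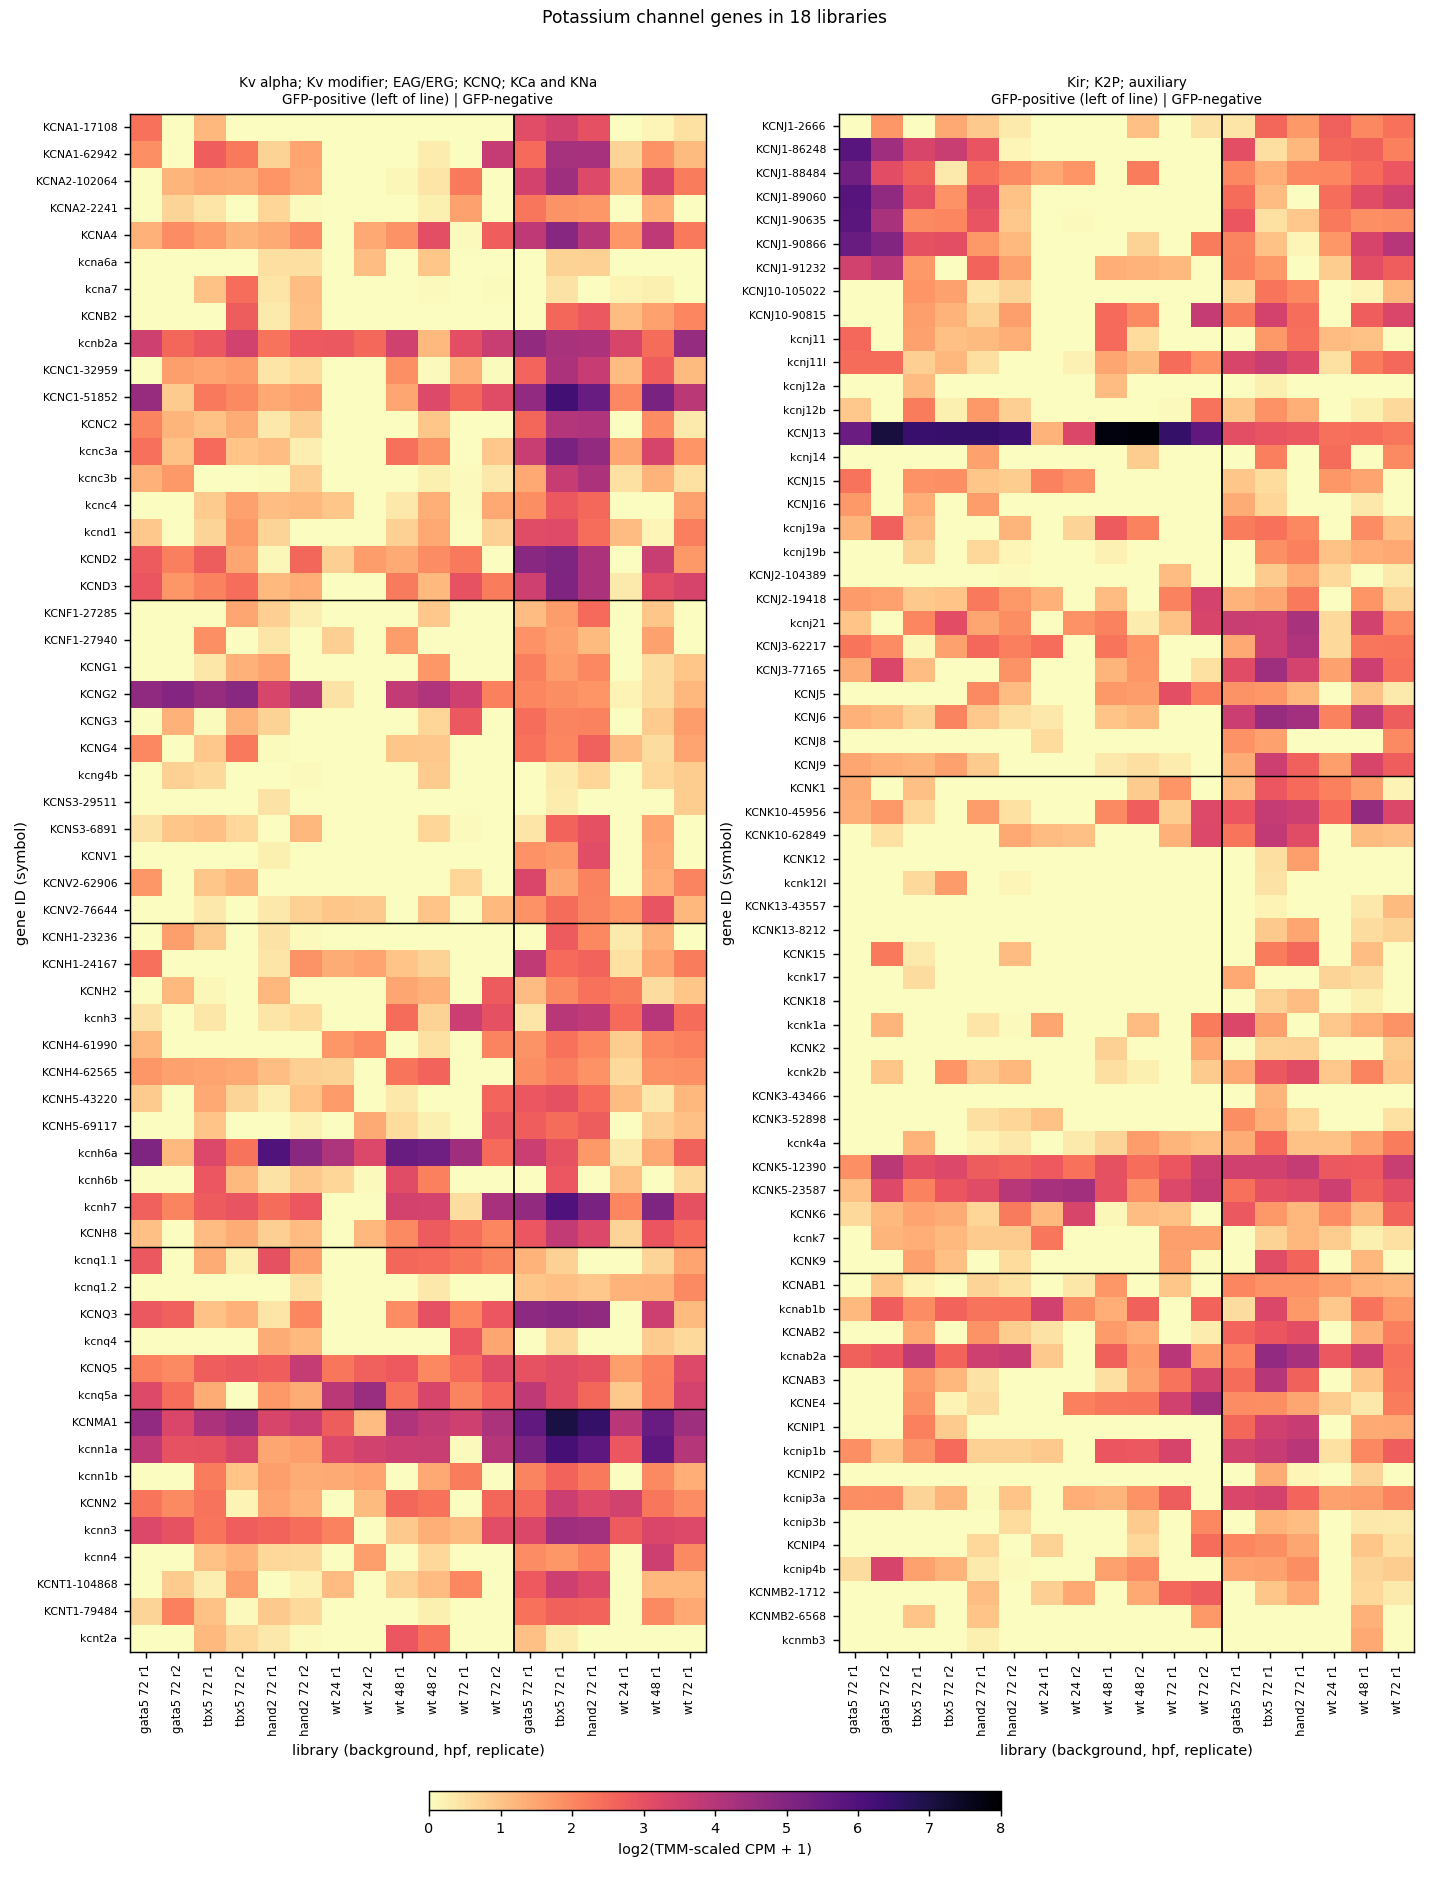
Level of 122 of the 125 potassium channel gene IDs in 18 libraries (colour: log2 of TMM-scaled CPM + 1). Columns left of the vertical line are GFP-positive libraries and columns right of it GFP-negative ones, rows are grouped by channel class, and KCNJ13 (darkest left of the line) and KCNG2 stand out among the pale GFP-positive columns.

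The first comparison asked which of these transcripts the GFP-positive fraction held above or below the GFP-negative one, within condition, over 12 and 6 libraries. Most of the genes that passed were lower in GFP-positive cells, in every class. Of the 97 members that could be tested, 2 were higher and 29 were lower at an adjusted p under 0.05 (edgeR quasi-likelihood test, Benjamini-Hochberg over 21729 genes), where 12.4% of all genes tested were higher and 16.9% lower (29.3% either way). The median log2 fold change of the 97 was −2.54, beside −0.26 over all genes. 28 members did not pass the filter on low counts, which asked for enough reads in at least 6 libraries, the number of GFP-negative ones. A gene present only in GFP-negative cells could thus pass it, while one present in only a few GFP-positive libraries could not. The counts and the median hold for the 97 members kept. Fewer cells of a type in a fraction and less RNA per cell cannot be told apart in such bulk samples. The neural markers given above were lower in the same fraction, and their part in the result was not tested. With the wild-type libraries alone (6 against 3) edgeR called none of 88 tested members, with 2 higher and 18 lower at an unadjusted p under 0.05, and over all genes that fit called 325 higher and 361 lower. On all 18 libraries DESeq2 called 3 of the 97 higher and 50 lower, beside 3348 and 5572 of all 28298 genes. The 97 had passed the filter and the 28298 were not filtered, so these shares are not alike. The DESeq2 count over all 125 members is given in the last section.

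KCNJ13 was the member most above the GFP-negative level. It encodes the inward rectifier Kir7.1, known in zebrafish from mutants with altered pigment stripes. GFP-positive libraries held 42.6 and 134 (gata5), 84.8 and 88.0 (tbx5) and 88.0 and 80.5 CPM (hand2) in the 3 backgrounds, and in wild type 1.38 and 8.59 CPM at 24 hpf, 216 and 229.7 at 48 hpf, then 90.4 and 50.4 at 72 hpf. The GFP-negative libraries stayed between 3.81 and 7.23 CPM. From 48 hpf on, each GFP-positive library was above all 6 GFP-negative ones, and at 24 hpf the fractions overlapped. The log2 fold change was 3.45 ± 0.66 (SE, edgeR adjusted p = 0.00134). The summed xanthophore markers were high and low in the same libraries, at least 12030 CPM from 48 hpf on and at most 421 CPM at 24 hpf. Other lists had this order too. Melanophore and iridophore sums were at least 565.5 CPM from 48 hpf on and at most 87.2 CPM at 24 hpf. Skeletal muscle sums were at least 2937 and at most 260.4 CPM, and liver sums at least 188 and at most 29.1 CPM. The part of these cells in the result was not tested.

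KCNG2, a modifier subunit that forms channels only together with Kv2 subunits, was the other member called higher. It stood at 25.6 and 30.1 (gata5), 22.6 and 27.9 (tbx5) and 9.07 and 14.3 CPM (hand2) in GFP-positive libraries of the 3 backgrounds, and in those of wild type at 0.363 and 0 CPM at 24 hpf, 12.4 and 16.3 at 48 hpf, then 10.5 and 3.30 at 72 hpf. The GFP-negative libraries held 0.128 to 3.03 CPM. Again all 10 GFP-positive libraries from 48 hpf on were above every GFP-negative one, and the 24 hpf pair was not (2.91 ± 0.61, edgeR adjusted p = 0.00171). The Kv2 subunit genes kcnb2a (−1.12 ± 0.41) and KCNB2 (−5.65 ± 1.64) were lower in GFP-positive cells.

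kcnh6a, the zebrafish ERG channel gene whose loss prolongs ventricular repolarization, had a mean of 22.7 ± 19.3 CPM in GFP-positive and 4.52 ± 3.92 CPM in GFP-negative libraries (SD, n = 12 and 6) and missed the threshold (2.07 ± 0.85, edgeR adjusted p = 0.0816). In hand2 the GFP-positive libraries held 62.8 and 28.3 CPM, against 2.23 CPM in the GFP-negative one, in gata5 32.6 and 1.23, against 10.8, and in tbx5 8.38 and 4.01, against 6.80. Its wild-type GFP-positive libraries held 16.8 and 8.49 CPM, against 0.257 CPM in the GFP-negative one, at 24 hpf, 44.2 and 40.1, against 1.75, at 48 hpf, and 20.4 and 4.57, against 5.26, at 72 hpf. Both GFP-positive libraries were thus above the GFP-negative one in 3 of 6 conditions. Without TTN, summed heart muscle markers were 94.3 CPM in gata5 replicate 2, the GFP-positive library with the lowest kcnh6a, and 3285 CPM in hand2 replicate 1, the one with the highest. They were 1461 and 656 CPM in wild type at 72 hpf and reached 4471 CPM at 48 hpf, and their part in the kcnh6a values was not tested. Without gata5 GFP-positive replicate 2 kcnh6a was called (adjusted p = 0.0258), as it was without the tbx5 GFP-negative library (adjusted p = 0.0448), in the replicate 1 libraries alone (adjusted p = 0.0228) and by DESeq2 (adjusted p = 0.00784).

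**Figure D2:**
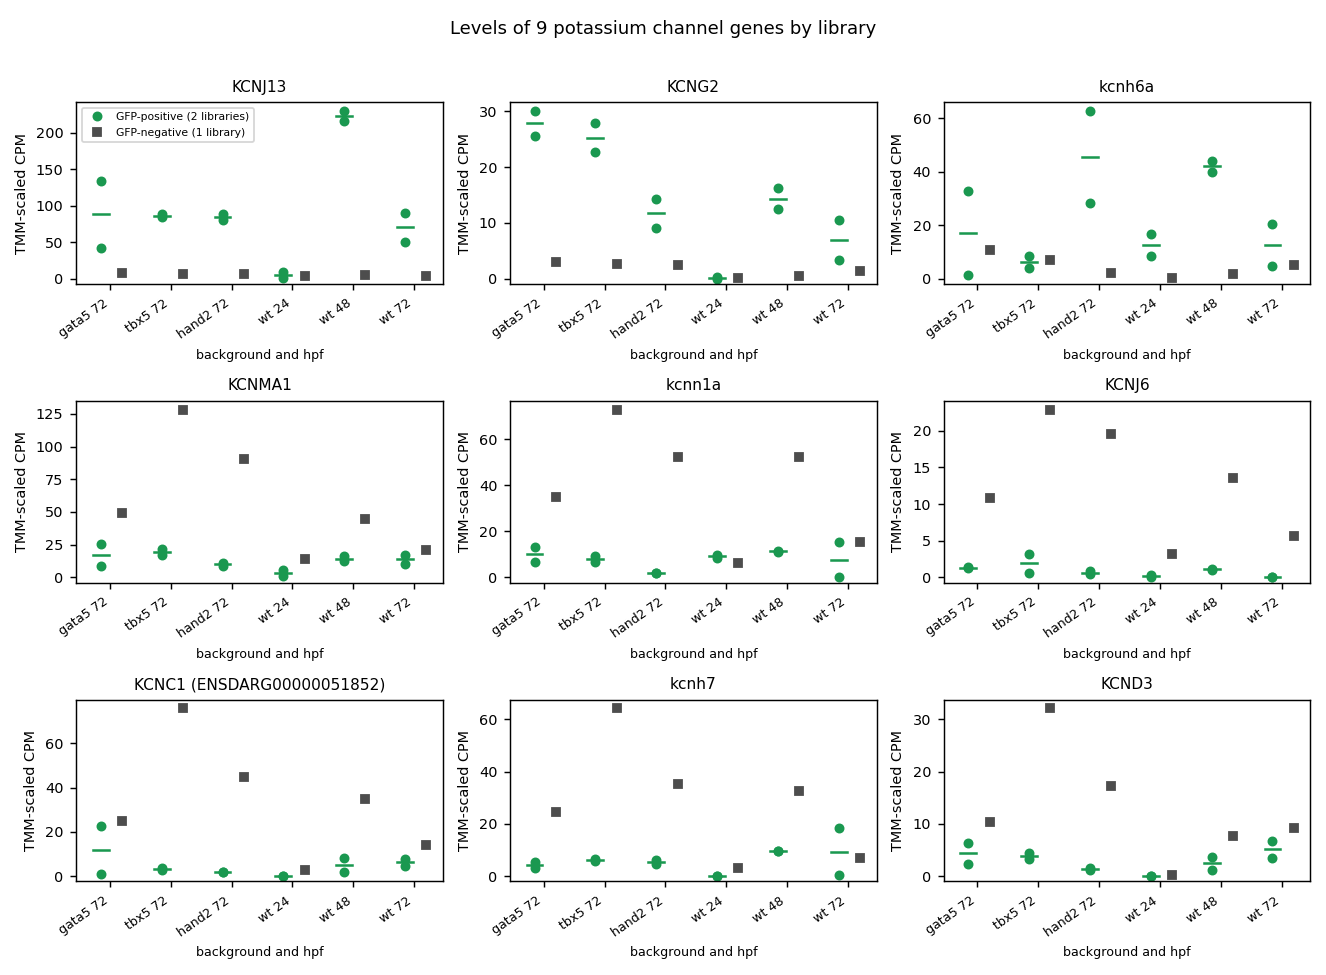
TMM-scaled CPM of 9 potassium channel genes in each library, by genetic background and hpf (green circles: 2 GFP-positive libraries with their mean as a line; grey squares: 1 GFP-negative library). KCNJ13 and KCNG2 are above the GFP-negative library from 48 hpf on, while KCNMA1, KCNJ6, KCNC1 and KCND3 are below it in all 6 conditions. For KCND3 at 24 hpf the GFP-negative library held only 2 counts.

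Among the classical voltage-gated subunits, 10 of 15 tested members were lower in GFP-positive cells and 0 were higher, with a median of −3.3. By subfamily, 5 of 6 kcnc genes and 1 of 3 kcnd genes passed. KCNC1 (ENSDARG00000051852) encodes a Kv3 channel of fast-spiking neurons. It ranged from 0 to 22.9 CPM in GFP-positive libraries (median 2.40), against 2.95 to 75.8 CPM in GFP-negative ones (median 30.0), and both GFP-positive libraries were below the GFP-negative one in each of the 6 conditions (−3.53 ± 0.72, adjusted p = 0.0017). kcnc3a, of the same subfamily, showed the same order in all 6 (−3.59 ± 0.84). KCND3, the Kv4 subunit of the cardiac transient outward current, ranged from 0 to 6.68 CPM in GFP-positive libraries (median 2.80), against 0.257 to 32.1 CPM in GFP-negative ones (median 9.79), also with both below in each condition (−2.38 ± 0.55, adjusted p = 0.00383). At 24 hpf the KCND3 order rests on 2 counts in the GFP-negative library (0.257 CPM), fewer than the floor of 3 counts. KCND2, a relative of KCND3, was not called (−1.95 ± 0.98).

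The modifier subunits, which are silent alone, split. Beside KCNG2, 3 of 9 tested genes were lower, namely KCNG4 (−4.83 ± 1.76) and both KCNV2 IDs. KCNV2 (ENSDARG00000076644) was between 0 and 1.27 CPM in all 12 GFP-positive libraries and between 1.32 and 6.62 CPM in the 6 GFP-negative ones, without overlap (−3.66 ± 1.32, adjusted p = 0.0454). Of 11 EAG and ERG genes, kcnh7 and kcnh3 were lower. In wild type at 72 hpf, however, kcnh3 was above its GFP-negative library, with 10.86 and 7.06 against 4.47 CPM. kcnh7, an ERG gene known mainly from neurons, had a median of 5.58 CPM (0 to 18.3) in GFP-positive and 28.6 CPM (3.08 to 64.2) in GFP-negative libraries (−2.74 ± 0.69, adjusted p = 0.00738). In wild type at 72 hpf GFP-positive replicate 2 (18.3 CPM) exceeded its GFP-negative library (6.84 CPM), and the ranges of the fractions overlapped. KCNH2, the mammalian cardiac ERG gene, was at 0 to 5.81 CPM in GFP-positive and 0.46 to 4.15 CPM in GFP-negative libraries and was called lower by DESeq2 (adjusted p = 0.0382) and not by edgeR (−3.18 ± 2.01, adjusted p = 0.258).

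Among the KCNQ genes, KCNQ3, a subunit of the neuronal M-current, was lower (−2.54 ± 0.82). In the wild-type libraries alone KCNQ3 was at 0.07. It held 1.004 and 1.48 CPM in GFP-positive libraries, against 28.9 CPM in the GFP-negative one, in tbx5, and 3.02 and 6.28, against 1.18, in wild type at 72 hpf, a difference between backgrounds that was not tested. kcnq1.2, a paralog of the cardiac KCNQ1, reached at most 0.392 CPM in GFP-positive libraries, against 0.91 to 2.89 CPM in GFP-negative ones (−6.13 ± 1.41, adjusted p = 0.0035). The other paralog, kcnq1.1, leaned the opposite way without a call, at 2.78 ± 2.51 CPM in GFP-positive and 0.766 ± 0.742 CPM in GFP-negative libraries (SD, 1.70 ± 1.32 on the log2 scale, adjusted p = 0.368). The kcnq1.2 difference rests on few reads.

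Calcium- and sodium-activated channel genes gave 3 lower of 8 tested and 0 higher. KCNMA1, the large-conductance BK channel, ranged from 1.15 to 25.3 CPM in GFP-positive libraries (median 11.8), against 14.2 to 128 CPM in GFP-negative ones (median 47.0). Both GFP-positive libraries were lower in each of the 6 conditions, most narrowly in wild type at 72 hpf, with 10.4 and 17.4 against 20.9 CPM (−2.04 ± 0.34, adjusted p = 0.000325). kcnn1a, a small-conductance SK gene, was called lower (−2.33 ± 0.72) but stood above its GFP-negative library at 24 hpf, with 8.27 and 9.96 against 6.29 CPM. KCNN2, the SK gene with known atrial expression in mammals, was not called (−1.72 ± 1.03).

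Of 23 tested inward rectifier genes, 6 were lower and KCNJ13 was higher. Genes of the G-protein-gated (GIRK) group were among those that fell. KCNJ6 ranged from 0 to 3.14 CPM in the 12 GFP-positive libraries and from 3.21 to 22.9 CPM in the 6 GFP-negative ones, without overlap (−4.61 ± 0.79, adjusted p = 0.000386). KCNJ9 (−4.28 ± 1.13) and KCNJ3 (ENSDARG00000077165, −3.90 ± 1.12) fell too. The other KCNJ3 ID, ENSDARG00000062217, was not called (−2.13 ± 1.41), and KCNJ5, the partner of KCNJ3 in the atrium, had a higher mean in GFP-positive cells (1.59 ± 2.20 CPM) than in GFP-negative ones (1.23 ± 1.03 CPM, SD) beside a fitted log2 fold change of −2.92 ± 2.21, which was not called (adjusted p = 0.357). KCNJ2 (ENSDARG00000019418), a Kir2 gene of the resting potential, was at 0 to 9.57 CPM, against 0 to 3.74 CPM (0.16 ± 1.21, not called).

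A single K2P gene and a single auxiliary gene passed, both lower. Among 11 tested K2P genes KCNK10 (ENSDARG00000045956), a mechano- and lipid-sensitive TREK channel, was lower (−3.66 ± 0.96, adjusted p = 0.00838). The 2 KCNK5 IDs were found in all 18 libraries, at 2.62 to 13.7 and 1.08 to 19.97 CPM in GFP-positive cells, against 5.88 to 12.04 and 4.20 to 10.7 CPM in GFP-negative cells, and were not called (−0.44 ± 0.39 and 0.20 ± 0.44). Of 12 auxiliary genes KCNIP1, a calcium-sensing partner of Kv4 channels, fell (−7.49 ± 1.28, adjusted p = 0.000508). It was listed at 0 in 10 of the 12 GFP-positive libraries, with 3.29 and 0.801 CPM in those of tbx5, against 0 to 11.7 CPM in the GFP-negative libraries. KCNE4, a single-span subunit that restrains KCNQ1 in other systems, was not called (−1.15 ± 1.55).

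**Figure D3:**
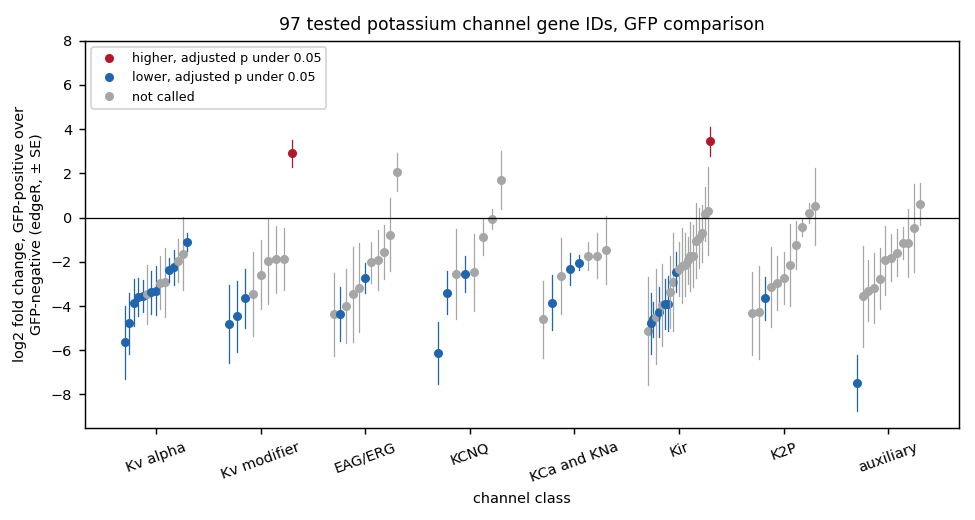
Log2 fold change ± SE (edgeR) of GFP-positive over GFP-negative cells for the 97 tested potassium channel gene IDs by class, red where higher and blue where lower at an adjusted p under 0.05. KCNG2 and KCNJ13 are the 2 red points, and 10 of the 15 Kv alpha genes are blue.

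The order of the fractions within conditions showed where the differences sat. Both GFP-positive libraries were below the GFP-negative one for 62 (gata5), 80 (tbx5) and 77 (hand2) of the 97 tested members in the 3 backgrounds, and in wild type for 44 at 24 hpf, 62 at 48 hpf and 51 at 72 hpf. Over all 21729 genes the share below was between 40.1% and 46.4% in these conditions. They were above it for 13 (gata5), 8 (tbx5) and 12 members (hand2), and in wild type for 14 (24 hpf), 18 (48 hpf) and 15 (72 hpf), where the share above over all genes was between 26.2% and 41.4%. Of the 13 above in gata5, 9 were inward rectifiers, with 7 of 23 below. Most of these 9 were IDs of the single symbol KCNJ1, which may share reads and are not taken as independent genes. The neural marker sums of the GFP-negative libraries were 1353 (gata5), 2566 (tbx5) and 1938 CPM (hand2), and in wild type 784 (24 hpf), 2209 (48 hpf) and 871 CPM (72 hpf), and their part was not tested.

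Genes that act with potassium channels were read from lists, beside 12.4% of all genes higher and 16.9% lower between the fractions. Of 29 tested partner and anchoring proteins 6 were higher and 15 lower in GFP-positive cells. LRRC10, a leucine-rich repeat protein of heart muscle, averaged 17.2 CPM in GFP-positive and 0.116 CPM in GFP-negative libraries (7.15 ± 1.07). The sulfonylurea receptors of KATP channels went both ways, with ABCC8 (ENSDARG00000077007) higher (20.2 against 3.46 CPM, 2.62 ± 0.49), ABCC8 (ENSDARG00000051879) lower (5.09 against 28.1 CPM, −2.89 ± 0.65) and ABCC9 lower (7.27 against 32.2 CPM, −2.14 ± 0.33). The neuronal Kv4 partner DPP6 was lower at both of its IDs (−2.89 ± 0.91 and −2.64 ± 0.79). Of 5 tested HCN genes, which carry the pacemaker current, HCN4 was lower, at 0.539 against 6.31 CPM (−4.92 ± 1.21). At an unadjusted p under 0.05, 1 of the 5 was higher and 3 were lower. Summed HCN levels overlapped, at 5.53 to 66.6 CPM in GFP-positive and 12.2 to 74.8 CPM in GFP-negative libraries. Of 21 genes of the muscarinic and adenosine input to GIRK channels 3 were higher, among them gnai1 (1.32 ± 0.24), and 8 lower, among them the neuronal G protein gene gnao1b (−2.32 ± 0.40). Of 18 Na,K-ATPase genes 4 were higher and 7 lower. Of 12 cation-chloride cotransporters 3 were higher and 3 lower.

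The second set of comparisons asked how channel transcripts in GFP-positive wild-type cells differed between stages, with 2 libraries a stage and the spread pooled over all 12 GFP-positive libraries. At 48 hpf, 6 of 108 tested members were higher than at 24 hpf and 0 lower (9.06% and 4.29% of all 23767 genes tested; 13.4% either way). The members' share called, 5.6%, was below that of all genes, while 19 were higher and 1 was lower at an unadjusted p under 0.05. DESeq2 called 19 higher and 2 lower, beside 3467 and 1734 of all 27294 genes. The median log2 fold change of members was 2.73, or 2.25 with genes at 0 in one stage set to their bound and genes at 3 counts or fewer in both left out, beside 0.15 over all genes. 17 members could not be tested in the stage and genotype comparisons.

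KCNJ13 stood at 216 and 229.7 CPM at 48 hpf, against 1.38 and 8.59 CPM at 24 hpf (5.42 ± 0.85, edgeR adjusted p = 0.00238). KCNG2 held 12.4 and 16.3 CPM at 48 hpf, against 0.363 and 0 CPM at 24 hpf (6.35 ± 1.07, adjusted p = 0.0009). The other 4 had no read at 24 hpf, so their fold changes are lower bounds against 3 counts over both 24 hpf libraries. Such bounds cover counting error only, not the spread between libraries. kcnh7 (9.65 and 9.55 CPM at 48 hpf) was at least 105-fold higher (adjusted p = 0.00671). KCNC1 (ENSDARG00000051852, 1.77 and 8.22 CPM) was at least 59.2-fold higher, KCNQ3 (2.77 and 7.17 CPM) at least 57.5-fold and KCND3 (3.62 and 1.27 CPM) at least 25.2-fold. They were called higher at 72 than at 24 hpf as well, in a comparison that shares the 24 hpf libraries.

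Markers moved between the same libraries. In GFP-positive wild-type cells the neural list rose in 8 of 13 members at 48 against 24 hpf and the xanthophore list in 10 of 10. The skeletal muscle list rose in 7 of 10, the liver list in 5 of 7 and the melanophore and iridophore list in 6 of 11. Meanwhile 7 of 7 endothelial and 5 of 7 erythrocyte markers fell. Of 13 heart muscle markers 1 rose and 0 fell. Their sums were 9593 and 9113 CPM at 48 hpf, against 4066 and 4200 CPM at 24 hpf. Without TTN they were 4471 and 3558 CPM, against 1412 and 1605 CPM. Skeletal muscle sums were 4161 and 3737 CPM at 48 hpf, against 236 and 260.4 CPM at 24 hpf, and erythrocyte sums 1063 and 839 CPM, against 17540 and 12440 CPM. Neural sums were 516 and 553 CPM at 48 hpf, against 140 and 105 CPM at 24 hpf. The xanthophore sum was 40930 and 43060 CPM, against 421 and 229 CPM. What part these cells had in the stage differences was not tested. The call count also depended on single libraries: without 24 hpf replicate 2 or without 48 hpf replicate 2 it was 3, with KCNJ13 and KCNG2 kept in both.

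Between 48 and 72 hpf no member passed in edgeR, where 0.488% of all genes did. At an unadjusted p under 0.05 2 members were higher and 10 lower at 72 hpf. DESeq2 called 0 higher and 8 lower, beside 609 and 721 of all 27294 genes. Without 72 hpf replicate 2 the edgeR count was 1. kcnh6b, an ERG paralog, had 0 and 0 CPM at 72 hpf, against 7.88 and 3.31 CPM at 48 hpf (adjusted p = 0.254). KCNJ13 held 90.4 and 50.4 CPM at 72 hpf, against 216 and 229.7 CPM at 48 hpf, without overlap and without a call. KCNE4, by contrast, held 10.12 and 20.2 CPM at 72 hpf, against 3.76 and 3.92 CPM at 48 hpf, also not called.

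At 72 against 24 hpf 7 of 108 members were called either way (15.7% of all genes), namely the 6 above and a KCNJ1 gene. KCNJ13 was 3.78 ± 0.79 and KCNG2 5.31 ± 1.03 higher on the log2 scale. kcnh7, at 0.464 and 18.3 CPM at 72 hpf, was at least 122-fold higher, though its replicates differed widely. KCNC1 (4.78 and 7.86 CPM) was at least 72.6-fold, KCNQ3 (3.02 and 6.28 CPM) at least 54.4-fold and KCND3 (6.68 and 3.54 CPM) at least 52.6-fold higher. KCNJ1 (ENSDARG00000088484) was lower, at 0 and 0 CPM at 72 hpf, against 1.74 and 2.41 CPM at 24 hpf, at least 38.2-fold (adjusted p = 0.0463). The bounds again cover counting error only. Without 24 hpf replicate 2 the count fell to 4.

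The other genes of the pathway were read at 48 against 24 hpf too, where 9.06% of all genes rose and 4.29% fell. Of 29 partner proteins 6 rose and 0 fell, among them the membrane anchors ank2b (3.21 ± 0.29) and ANK3 (2.77 ± 0.47). In the GIRK input list 7 of 20 rose, among them CHRM2, the muscarinic receptor that opens cardiac GIRK channels, at 19.8 CPM at 48 hpf, against 0.435 CPM at 24 hpf (5.50 ± 1.61, adjusted p = 0.0337). The GIRK subunit KCNJ5 was at 2.27 and 2.10 CPM at 48 hpf, against 0 and 0 CPM at 24 hpf, and was called by DESeq2 (adjusted p = 0.00749) and not by edgeR. Na,K-ATPase genes rose in 5 of 18. Cotransporters rose in 1 of 13 with 1 lower, near the share of all genes. Of 6 HCN genes edgeR called 0, with 1 higher at an unadjusted p under 0.05.

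The third set compared GFP-positive cells of each genetic background with wild type at 72 hpf, 2 libraries each, sharing the wild-type pair. The KCNJ1 genes stood out in gata5. KCNJ1 encodes ROMK, through which kidney tubule cells and, in zebrafish, skin ionocytes secrete potassium, and 7 IDs carry the symbol. In gata5, 2 of 108 tested members were higher and 0 lower (0.0757% and 0.0295% of all genes; 0.105% either way), both of them KCNJ1 IDs. At an unadjusted p under 0.05 15 members were higher and 6 lower. DESeq2 called 9 higher and 4 lower, beside 679 and 328 of all 27294 genes.

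KCNJ1 (ENSDARG00000089060) held 56.7 and 25.9 CPM in gata5 GFP-positive cells, against 0 and 0 CPM in wild type, at least 756-fold more (adjusted p = 0.0398). KCNJ1 (ENSDARG00000090635) held 53.8 and 17.7 CPM, against 0 and 0 CPM, at least 660-fold more (adjusted p = 0.0398). These bounds cover counting error only, not the spread between libraries. In this wild-type pair 28 of the 65 members that reached 1 CPM in either replicate were at 0 in the other. KCNJ1 (ENSDARG00000086248) was as separated, at 55.9 and 20.3 CPM against 0 and 0 CPM, but was not called (adjusted p = 0.128). KCNJ1 (ENSDARG00000090866) held 43.7 and 30.9 CPM, against 0 and 3.48 CPM, and KCNJ1 (ENSDARG00000088484) 39.3 and 7.47 CPM, against 0 and 0 CPM. The remaining pair was lower, ENSDARG00000091232 at 9.85 and 14.3 CPM, against 1.25 and 0 CPM, and ENSDARG00000002666 at 0 and 2.36 CPM, against 0 and 0.373 CPM. In 6 of 7 IDs both gata5 libraries were above both wild-type libraries, an order that 17.6% of all genes tested and 19 of the 108 tested members showed. Reads of near-identical copies could be split between these IDs by the counting, so the 7 values are not taken as 7 independent genes.

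**Figure D4:**
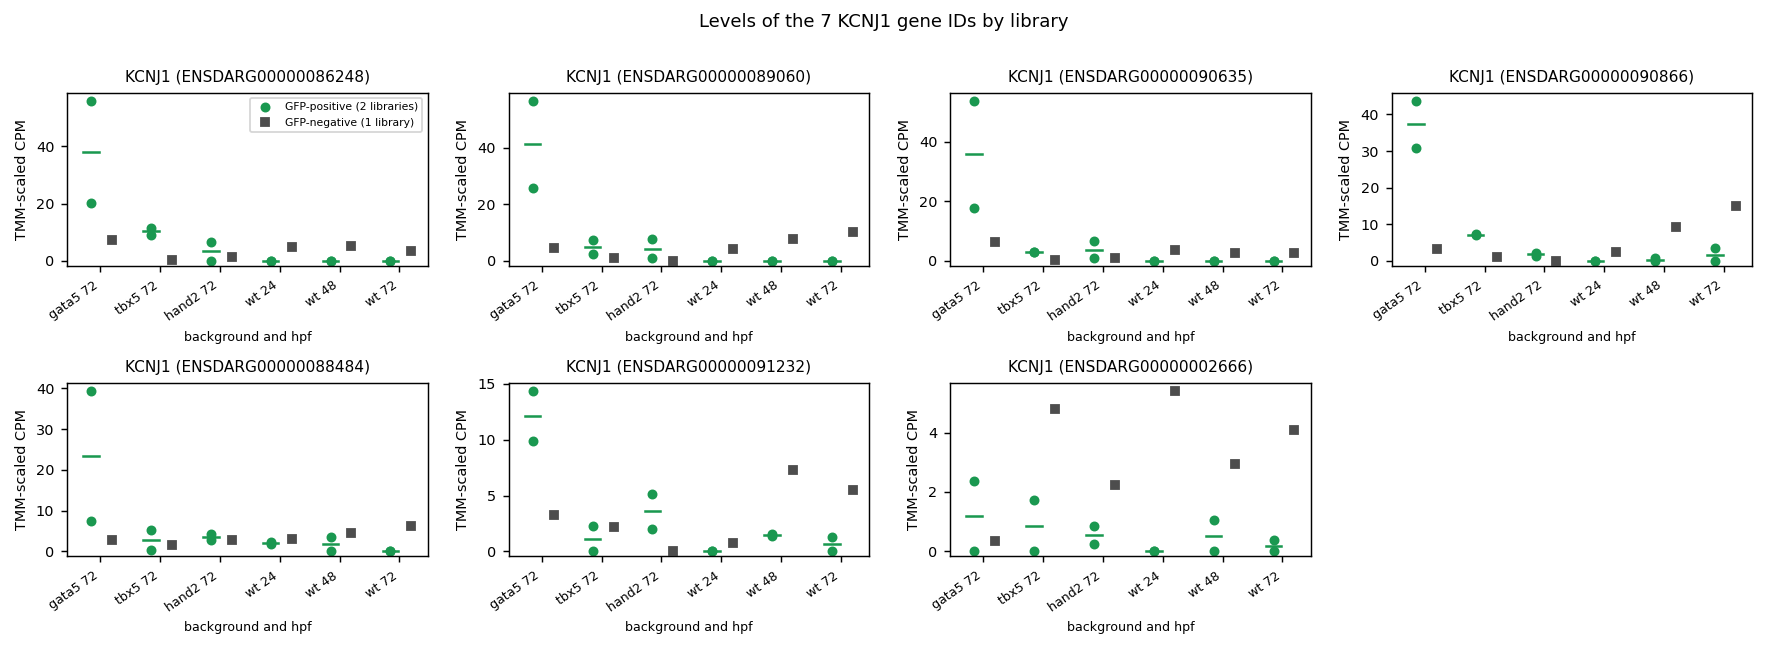
TMM-scaled CPM of the 7 KCNJ1 gene IDs in each library (green circles: 2 GFP-positive libraries with their mean; grey squares: 1 GFP-negative library). For 6 of the 7 IDs the gata5 GFP-positive libraries are the highest of the 12 GFP-positive ones, at up to 56.7 CPM.

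Values were lower in the other backgrounds, and the backgrounds were not tested against each other. ENSDARG00000089060 held 7.34 and 2.53 CPM in tbx5 (adjusted p = 0.17) and 7.72 and 1.03 CPM in hand2 (adjusted p = 0.114), above the wild-type pair at 0 in each and below the call. The GFP-negative libraries at 72 hpf held ENSDARG00000089060 at 4.43 (gata5), 1.16 (tbx5) and 0 CPM (hand2), against 10.13 CPM in wild type. The 10 markers of ionocytes and kidney tubule summed to 336 and 357 (gata5), 260 and 191 (tbx5) and 230 and 262 CPM (hand2), against 156 and 241 CPM in wild type. The sums overlapped wild type in tbx5 and hand2. SLC4A4 (ENSDARG00000044808) alone made up 146.8 and 230.1 CPM of the gata5 sums and 111.4 and 96.98 CPM of the wild-type ones. Without this ID the gata5 sums overlapped wild type as well. Of these 10, edgeR called 0 in each background, with 2 (gata5), 1 (tbx5) and 2 (hand2) higher at an unadjusted p under 0.05 and medians of 1.47, −0.02 and −0.33 in that order. SLC12A1, the salt cotransporter of the kidney tubule, was at 11.2 and 10.9 CPM in gata5, against 0 and 0.715 CPM in wild type. The chloride channel gene clcnk was at 5.06 and 4.20 CPM, against 0 and 0 CPM. SLC4A4 (ENSDARG00000044808) was also above both wild-type libraries, and so, narrowly, was TRPV6 (18.89 and 43.82 CPM, against 2.599 and 18.84 CPM). The others on the list overlapped wild type, among them ca2 (25.76 and 9.522 CPM, against 8.401 and 33.97 CPM). In hand2, where edgeR called no member, SLC12A1 (5.163 and 2.056 CPM) and clcnk (5.121 and 1.567 CPM) were above wild type too. In tbx5 clcnk was above wild type and SLC12A1 overlapped it. The part of these markers in the KCNJ1 difference was not tested. Leaving out either gata5 GFP-positive library ended both calls. Without wild-type replicate 2 the count rose, as it did over all genes.

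In tbx5 and in hand2 no member was called by edgeR, where 0.0463% and 0.0505% of all genes were. At an unadjusted p under 0.05 14 members were higher and 5 lower in tbx5. DESeq2 called 9 and 1 there, beside 519 and 225 of all 27294 genes. In hand2, 10 were higher and 1 lower, and DESeq2 called 6 and 0, beside 569 and 237 of all genes. KCNG2 held 25.6 and 30.1 CPM in gata5 and 22.6 and 27.9 CPM in tbx5, both above the 10.5 and 3.30 CPM of wild type, and 9.07 and 14.3 CPM in hand2, which overlapped wild type, with no call in any. Both libraries were above both wild-type ones for 17.6% of all genes tested in gata5 and 20.8% in tbx5. KCNJ13 overlapped wild type in gata5, tbx5 and hand2 alike. Calls of members appeared in tbx5 without wild-type replicate 1, and in hand2 without wild-type replicate 1 or without hand2 replicate 2. These fits leave 1 library in a group, and without wild-type replicate 1 the calls over all genes rose steeply as well. The wild-type replicates at 72 hpf correlated at 0.807 (log2 of CPM + 1), the lowest of the GFP-positive pairs. The medians of the partner protein, HCN, GIRK input, Na,K-ATPase and cotransporter lists lay between −0.87 and 0.59 in the 3 backgrounds. No gene of these lists passed in edgeR, where between 0 and 3 genes of a list were higher and between 0 and 3 lower at an unadjusted p under 0.05.

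Members with known roles in the heart were followed whatever their values. Of the 22 IDs matched 16 were tested between the GFP fractions and 16 in the stage and genotype comparisons, not all of them the same. Between the GFP fractions 4 of the 16 tested there passed, all lower (KCND3, KCNMA1, kcnq1.2 and KCNJ3 ENSDARG00000077165), where 16.9% of all genes were lower. Between stages 1 passed (KCND3). DESeq2 also called KCNK1 lower between the fractions (adjusted p = 0.0101). At 48 against 24 hpf it called kcnj11, kcnq1.1 and KCNMA1 higher (adjusted p = 0.031, 0.00177 and 0.047), beside KCNJ5 above. At 72 against 24 hpf it called kcnq1.1, KCNJ5 and KCNMA1 higher (adjusted p = 0.00243, 0.000936 and 0.0326). KCNJ3 (ENSDARG00000062217) was lower by DESeq2 at 72 than at 24 and 48 hpf (adjusted p = 0.00527 and 0.0127). The filtered edgeR test called none of these. Without the filter, edgeR called kcnq1.1 higher at 48 and 72 than at 24 hpf (adjusted p = 0.0186 and 0.022). In the gata5 comparison edgeR called 0 of the 16 tested there, with 2 higher and 2 lower at an unadjusted p under 0.05. In tbx5 and hand2 it called 0, with 2 higher and 1 lower each. KCNE4 held 0 and 0 (gata5), 2.46 and 0.123 (tbx5) and 0.462 and 0 CPM (hand2), against 10.12 and 20.2 CPM in wild type, so all 6 libraries of these backgrounds were below both wild-type libraries (edgeR adjusted p = 0.334 in gata5). KCNJ5 held 0 and 0 (gata5), 0 and 0 (tbx5) and 2.85 and 1.18 CPM (hand2), against 7.24 and 3.45 CPM in wild type, again with all 6 below the pair and without a call (edgeR adjusted p = 0.406 in gata5 and 0.46 in tbx5). Both libraries were below both wild-type ones for 14.8% (gata5), 14.3% (tbx5) and 15.8% (hand2) of all genes tested, and for 16, 18 and 15 of the 108 tested members. All these orders share the same wild-type pair. DESeq2 called KCNE4 lower in gata5 (adjusted p = 0.00594), as did edgeR without the filter on low counts (adjusted p = 0.0132), and KCNJ5 lower in gata5 (adjusted p = 0.0142) and tbx5 (adjusted p = 0.00483), and KCNJ3 (ENSDARG00000062217) higher in gata5 (adjusted p = 0.0145) and hand2 (adjusted p = 0.015). kcnq1.1 held 6.06 and 0 (gata5), 1.63 and 0.185 (tbx5) and 6.97 and 1.96 CPM (hand2), against 3.90 and 3.14 CPM in wild type. kcnh6a held 32.6 and 1.23 (gata5), 8.38 and 4.01 (tbx5) and 62.8 and 28.3 CPM (hand2), against 20.4 and 4.57 CPM. The hand2 libraries of kcnh6a were both above the wild-type ones, an order that 27.2% of all genes tested showed, and the other backgrounds overlapped wild type. Summed heart muscle markers without TTN were 998 and 94.3 (gata5), 389.9 and 274.5 (tbx5) and 3285 and 1076 CPM (hand2), against 1461 and 656 CPM in wild type. With TTN they were 4941 and 1369 (gata5), 3453 and 2593 (tbx5) and 10140 and 3601 CPM (hand2), against 5097 and 8968 CPM, and their part in these values was not tested.

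**Figure D5:**
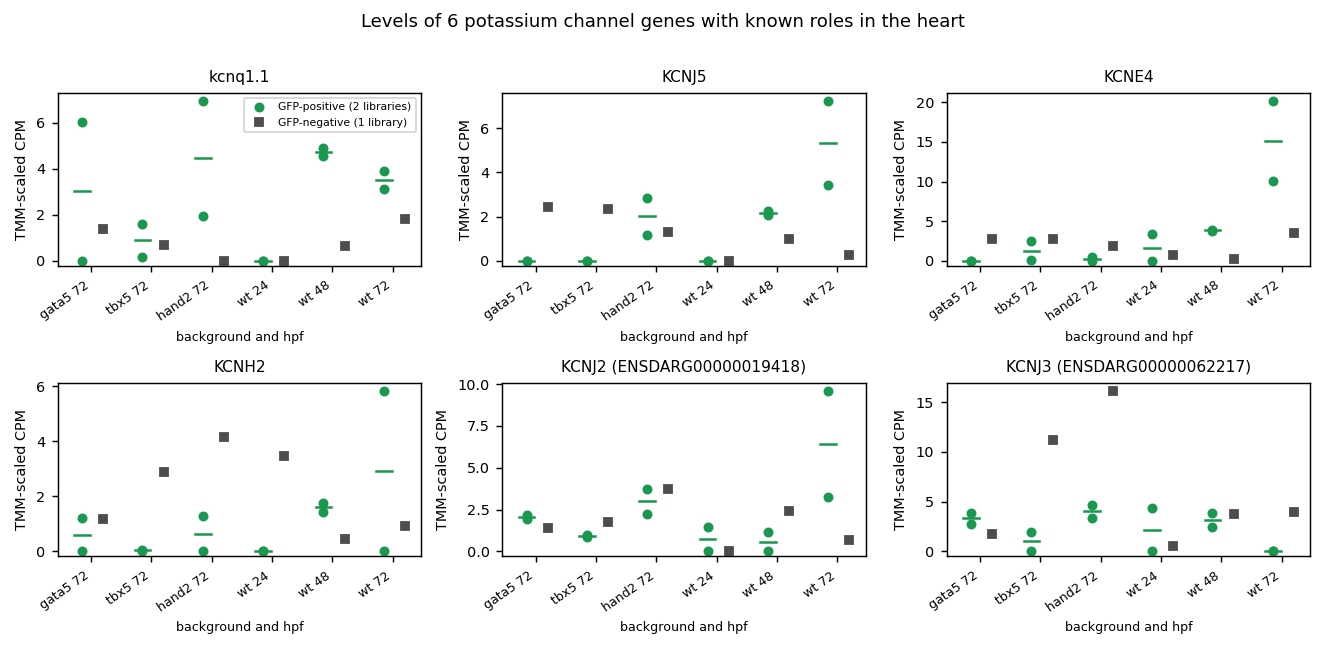
TMM-scaled CPM of 6 potassium channel genes with known roles in the heart, in each library (green circles: 2 GFP-positive libraries with their mean; grey squares: 1 GFP-negative library). KCNE4 and KCNJ5 are highest in the wild-type GFP-positive libraries at 72 hpf, up to 20.2 and 7.24 CPM, and none of the 6 genes passed the filtered edgeR test in any of the 7 comparisons.

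The heart genes left untested were low throughout. KCNJ8, the pore of the vascular and cardiac KATP channel, was at 0 CPM in 11 of 12 GFP-positive libraries and reached 2.89 CPM in GFP-negative cells of wild type at 72 hpf. KCNIP2, the cardiac partner of Kv4 in mammals, was at 0 in all 12 GFP-positive libraries and at up to 1.60 CPM in the GFP-negative ones. The floors behind these zeros, 3 counts in a library, were 0.0932 to 0.307 CPM in GFP-positive and 0.133 to 0.395 CPM in GFP-negative libraries, and they cover counting error only. KCNK3 (ENSDARG00000043466), a TASK channel, was also at 0 in every GFP-positive library. kcnq1 and kcne1 matched no symbol and are not analysed here.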

How the data were processed

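RNA-seq of 18 libraries was used, 12 GFP-positive and 6 GFP-negative. The deposited table holds whole-number read counts per Ensembl gene ID with no normalization. The authors' regularized-log table was not used here. Per the submitters' processing notes, the tools were Trimmomatic 0.36, STAR 2.5, SAMtools 1.4 and DESeq2, with genome build GRCz10. Not given in the sources used here were the counting step, annotation release and strand setting, so reads of overlapping, antisense or near-identical genes cannot be assigned with certainty. A reference table gave symbols for 24555 of 28298 IDs. 83 of the 125 members carry an upper-case symbol, which can stand for either of several zebrafish paralogs.

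The deposited counts went into edgeR 4.0.16 under R 4.3.3 (TMM, filterByExpr with minimum count 10 and minimum total 15, robust quasi-likelihood F test, two-sided, Benjamini-Hochberg over all genes, called at an adjusted p under 0.05). edgeR reports no SE, so each SE given with its fold changes is the absolute log2 fold change divided by the square root of F. The GFP comparison was fitted within condition over 18 libraries (21729 genes, 11 residual degrees of freedom, common biological coefficient of variation 0.822). Stages and genotypes were compared in the 12 GFP-positive libraries as 6 groups (23767 genes, 6 degrees of freedom, 0.89). The fits were also run on simulated data, with the same spread for every gene, set below these estimates, and changes in well-counted genes only. That run cannot show how the fits perform on members with few reads. 97 and 108 members passed the filter, and 15 passed neither. A fold against a group at 0 is a lower bound set by 3 counts over that group, for counting error only. A floor for a single library is 3 counts in it.

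The alternatives were RLE scaling, no filter, DESeq2 1.42.0, each library left out, the wild-type libraries alone, the 24 hpf libraries left out, the replicate number as a block, and the replicate 1 libraries alone as pairs. The members and lists were chosen with earlier results of these data known. The naming rule takes called members of at least 1 CPM in libraries that do not overlap (the 12 largest changes each way between fractions, 6 elsewhere), those called in 3 or more comparisons, and the heart list. Other members named were chosen after their values were seen. An upper-case symbol was matched to a listed paralog without its letter. A few genes are counted in the totals and not reported here by name.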

Additional observations from a re-analysis of the deposited data

Results flagged for a closer look

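For 11 of the 32 members named by the rule, both GFP-positive libraries were above the GFP-negative library in some conditions and both below it in others (34.4%). The same held for 43 of 97 tested members (44.3%) and for 50.4% of all genes tested that reached 1 CPM. Each value is the log2 ratio of the mean GFP-positive CPM + 0.5 to the GFP-negative CPM + 0.5, and conditions where the libraries were mixed are left out. Each GFP-negative value is 1 library, and these differences between conditions were not tested. Backgrounds other than wild type are at 72 hpf.

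KCNH2 stood at −2.66 (tbx5) and −2.01 (hand2), and in wild type at −2.99 (24 hpf) and 1.13 (48 hpf). For KCNE4 the ratio was −2.72 (gata5), −0.84 (tbx5) and −1.67 (hand2), and in wild type 2.48 (48 hpf) and 1.95 (72 hpf). The log2 ratio of KCNJ2 (ENSDARG00000019418) was 0.43 (gata5), −0.68 (tbx5) and −0.28 (hand2), beside −1.44 (48 hpf) and 2.58 (72 hpf) in wild type. KCNJ3 (ENSDARG00000062217) stood at 0.77 (gata5), −2.94 (tbx5) and −1.87 (hand2), and in wild type at −3.15 (72 hpf). For KCNJ5 the ratio was −2.56 (gata5) and −2.51 (tbx5), and in wild type 0.83 (48 hpf) and 2.94 (72 hpf). The log2 ratio of kcnk1a was −2.97 (gata5), −2.32 (tbx5) and 0.47 (hand2), beside −0.93 (48 hpf) in wild type. KCNN2 stood at −0.41 (gata5), −2.15 (tbx5) and −2.00 (hand2), and in wild type at −3.23 (24 hpf) and 0.23 (48 hpf). For KCNQ3 the ratio was −2.11 (gata5), −4.08 (tbx5) and −3.58 (hand2), and in wild type −1.04 (48 hpf) and 1.61 (72 hpf). The log2 ratio of KCNJ1 (ENSDARG00000088484) was 2.81 (gata5), beside −0.47 (24 hpf), −1.17 (48 hpf) and −3.77 (72 hpf) in wild type. KCNJ1 (ENSDARG00000089060) stood at 3.08 (gata5), 1.71 (tbx5) and 3.29 (hand2), and in wild type at −3.28 (24 hpf), −4.07 (48 hpf) and −4.41 (72 hpf). For KCNJ1 (ENSDARG00000090635) the ratio was 2.39 (gata5) and 1.93 (tbx5), and in wild type −3.00 (24 hpf), −2.66 (48 hpf) and −2.71 (72 hpf).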

How the results depend on the processing

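RLE scaling kept each of the 7 counts of called members within 1 (32 against 31 between the GFP fractions). Between the GFP fractions DESeq2 called 56 of all 125 members (3 higher, 53 lower), all 31 edgeR calls among them, and the wild-type libraries alone gave 0 with KCNQ3 at 0.07. There KCNJ13 was 3.03 (adjusted p = 0.261) and KCNMA1 −1.49 (adjusted p = 0.165). Without the 24 hpf libraries the count was 36, and without a filter 30. Without a filter the counts were 11 at 48 against 24 hpf, 2 at 72 against 48 hpf, 15 at 72 against 24 hpf, and 6 (gata5), 4 (tbx5) and 4 (hand2) against wild type. With DESeq2 they were 21, 8, 25, 13, 10 and 6 in the same order. In these comparisons both settings called more over all genes as well, in gata5 310 higher and 204 lower without a filter and 679 and 328 with DESeq2. Leaving out 1 library in turn gave 21 to 33 calls between the GFP fractions, with KCNJ13 and KCNG2 higher each time, 3 to 5 at 48 against 24 hpf, 0 to 1 at 72 against 48 hpf, 4 to 9 at 72 against 24 hpf, 0 to 4 in gata5, 0 to 1 in tbx5 and 0 to 2 in hand2. Calls over all genes shifted too, and they rose steeply in the comparisons with wild type at 72 hpf when its replicate 1 was left out. The cause of these shifts was not tested. Of the values of named called members, 214 of 258 kept direction and call with 1 library left out and 44 lost the call, and under the other settings 108 of 126 kept both, 17 lost the call and 1 changed sign.

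Over 15 pairs of GFP-positive groups the deviations of same-numbered libraries correlated between −0.091 and 0.091. This check cannot show whether the GFP-positive and GFP-negative libraries of a condition are paired. Each condition has only 1 GFP-negative library. With the replicate number as a block the counts were 5, 0, 6, 1, 0 and 0 in the stage and genotype comparisons in the order above. Between the GFP fractions a paired fit of the replicate 1 libraries (6 pairs, the condition as block), chosen after seeing the data, called 21 members (3 higher, 18 lower), 16 of them among the 31. KCNJ13 (3.46) and KCNG2 (2.99) were higher there too, and kcnq1.2, KCND3 and KCNQ3 lost their calls. A difference that missed the edgeR threshold is not shown to be absent. A zero in a library allows up to 0.0932 to 0.395 CPM.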
